A study of Drosophila melanogaster with 13 samples.

Results

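Among protein-coding genes of the X chromosome, 189 of 1378 (13.7%) were not reduced in first instar male larvae that lacked both *roX* RNAs. These 189 genes are the members described here. They were chosen by their CPM (counts scaled to the summed nuclear gene counts of a library) in the wildtype and *roX1 roX2* libraries. A member had a wildtype mean of at least 5 CPM, and its mean in the double mutant was not below that of wildtype, which is a log2 ratio of 0 or more. The gene *w* and 5 others (*CG3588* and *CG14416* to *CG14419*) were left out by name. The remaining 1189 X genes above the expression minimum are called reduced X genes, and 99 of them (7.18% of the 1378) were at a log2 ratio of -1 or less. The files listed 17476 genes in all, and 765 of 2143 protein-coding X genes lay under the minimum and were not considered.

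In male flies the MSL complex, made of MSL proteins, the acetyltransferase MOF, the helicase MLE and the noncoding RNAs *roX1* and *roX2*, binds the single X chromosome, acetylates histone H4 and raises transcription of most X genes. Either *roX* RNA can serve in the complex, and loss of both mislocalises it and is largely lethal to males. X genes differ in how strongly they depend on this machinery.

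Polyadenylated RNA from whole larvae was sequenced in 13 libraries, each a pool of larvae. There were 3 libraries of the y[1] w[1118] strain used as wildtype and 4 of the *roX1* mutant, in which roX1[ex6] is on a chromosome with the same markers. The 3 libraries of the *roX2* mutant carried the deletion roX2[9-4] on a chromosome marked y[1] cho[2] and v[1]. In the 3 of the *roX1 roX2* mutant, both roX1[ex6] and roX2[9-4] were on a chromosome labelled y[1] w[1118]. Mothers of these strains were crossed to males with a GFP-marked balancer X, and larvae without GFP were collected, so all larvae were heterozygous for paternal autosomes. The genotypes are not isogenic. Per the study's crosses both groups with the *roX2* deletion carry v[1], and the X chromosome of the *roX1 roX2* mutant is a recombinant that carries material of the *roX1* mutant X at its distal end and of the *roX2* mutant X from *v* onwards. A difference between genotypes therefore cannot be told apart from a difference between X chromosomes of different origin. Replicates are named by the numbers in their labels.

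Libraries held 39043315 to 73380332 counts on nuclear genes, and mitochondrial genes took 11.3% to 24.0% of gene counts, with the highest share in *roX2* replicate 2. The deleted genes matched the labels. *roX1* was at 1196 ± 59.0 CPM (SD, n = 3) in wildtype and at 0.856 to 5.47 CPM in the libraries that lack it, and *roX2* was at 25.9 ± 4.87 CPM in wildtype and at most 0.0544 CPM in the libraries that lack it. *v* was at 0.116 to 0.344 CPM in both groups with v[1], against 20.4 to 55.3 CPM in the other groups. Each member had at least 81 counts in each library and all 189 entered the tests, so no member was lost to a filter on low counts.

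The rule used the wildtype and *roX1 roX2* libraries, so the ratios of the double mutant are a description and were not tested. The members had a median log2 ratio of 0.17 (quartiles 0.05 and 0.34), the reduced X genes -0.47 (-0.69 and -0.27), and 7009 protein-coding genes of the major autosome arms above the same minimum 0.20 (-0.10 and 0.42). Of the autosomal genes, 67.8% were at a log2 ratio of 0 or more. Most members were therefore not raised relative to autosomes: 88 lay at or above the autosomal median and 101 below it. Their ratios were small, with 67 under 0.1, 18 at 0.5 or more and 2 at 1 or more. All 3 *roX1 roX2* libraries lay above all 3 wildtype libraries in 30 of the 189 members, where the same was true of 27.8% of all 13975 genes in the fit and 38.6% of the autosomal genes.

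Genes just inside and just outside the threshold had nearly equal mean levels in both genotypes. Just inside were *CG10804* (34.4 CPM in both groups), *ben* (100.2 in wildtype and 100.3 in the *roX1 roX2* mutant) and *B-H1* (6.79 and 6.82). Just outside were *CG43740* (18.9 CPM in both groups), *CG32815* (35.8 and 35.7) and *CG1582* (49.0 and 48.7). Membership is thus a cut through a continuous range. With 1 of the 6 libraries left out in turn the number of members was 161 to 242, and 110 of the 189 genes remained members under each of these 6 settings. Without wildtype replicate 1, which had the lowest share of its counts on members (1.18%, against 1.27% and 1.50% in the other wildtype libraries and 1.37% to 1.62% in the *roX1 roX2* libraries), 57 members were lost and 44 other genes gained. Scaling mattered as much. With TMM normalization, which lowered the median log2 ratio of all genes above 5 CPM by 0.17, 94 of the 189 stayed at or above 0, and with CPM over counts of the autosome arms 140 did.

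**Figure D1:**
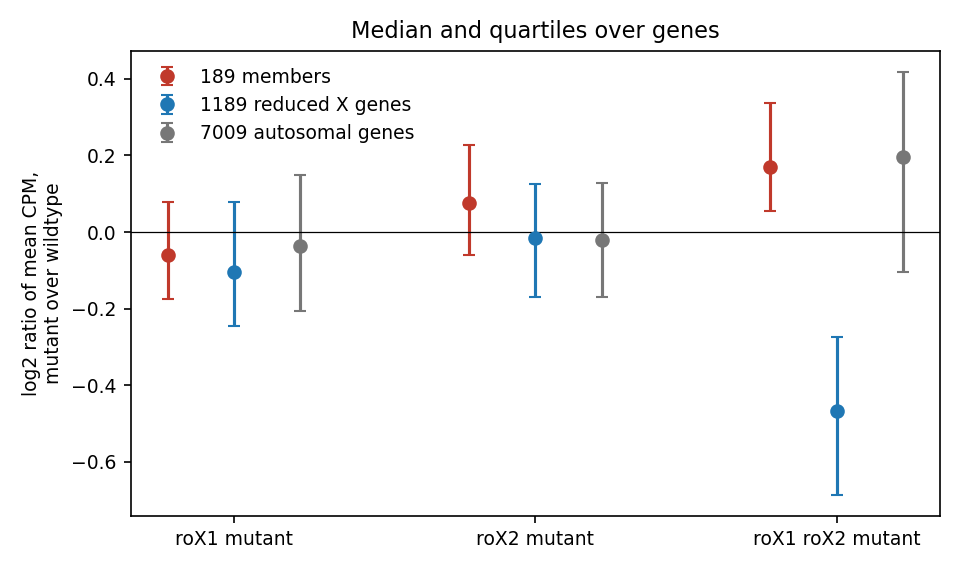
Log2 ratio of mean CPM in each mutant over wildtype, as the median (points) and quartiles (bars) over the 189 members, the 1189 reduced X genes and 7009 autosomal genes. Members and reduced X genes are apart in the *roX1 roX2* mutant, where they were chosen to be (medians 0.17 and -0.47), and overlap in both single mutants.

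The members were long genes. From start to end in the annotation they had a median length of 15.3 kb (quartiles 4.24 and 42.8 kb), against 3.32 kb (1.85 and 7.37 kb) for the reduced X genes and 3.02 kb for the autosomal genes. Their exons added up to a median of 4.56 kb against 2.37 kb for the reduced genes, and they had a median of 3 annotated transcripts against 2. In wildtype CPM, which grows with transcript length, the members and the reduced X genes were alike (medians 36.7 and 38.8), and per length the members were lower (medians 14.9 and 26.0 TPM, a measure scaled by exon length).

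The share of members grew with gene length. Among X genes of up to 2 kb, 18 of 352 (5.11%) were members, and among those of 2 to 5 kb 34 of 481 (7.07%). The share was 10.5% for genes of 5 to 10 kb (23 of 220), 21.3% for 10 to 20 kb (33 of 155) and 35.7% for 20 to 50 kb (40 of 112). Of the 58 X genes over 50 kb, 41 were members (70.7%). Genes over 20 kb made up 42.9% of the members.

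Autosomal genes served as the reference for length. For the X chromosome the median log2 ratio in the double mutant went from -0.53 at up to 2 kb to 0.13 over 50 kb, while that of autosomal genes was 0.13 and 0.31 in the same classes and between 0.15 and 0.25 in the classes in between. The X median minus the autosomal median was -0.65, -0.69 and -0.64 in the classes up to 10 kb, -0.46 at 10 to 20 kb, -0.34 at 20 to 50 kb and -0.18 over 50 kb. In single libraries, as median log2(CPM + 1) relative to the wildtype mean, this difference was -0.19, -0.15 and -0.19 over 50 kb and -0.56, -0.64 and -0.63 at up to 2 kb in the 3 *roX1 roX2* replicates. The 3 wildtype libraries stayed between -0.06 and 0.07 in each class. Their own mean is the base of this scale, so values near 0 are in part built in. These are libraries that the rule used, so the values are a description. In the single mutants the X median minus the autosomal median lay between -0.08 and 0.03 in all length classes.

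**Figure D2:**
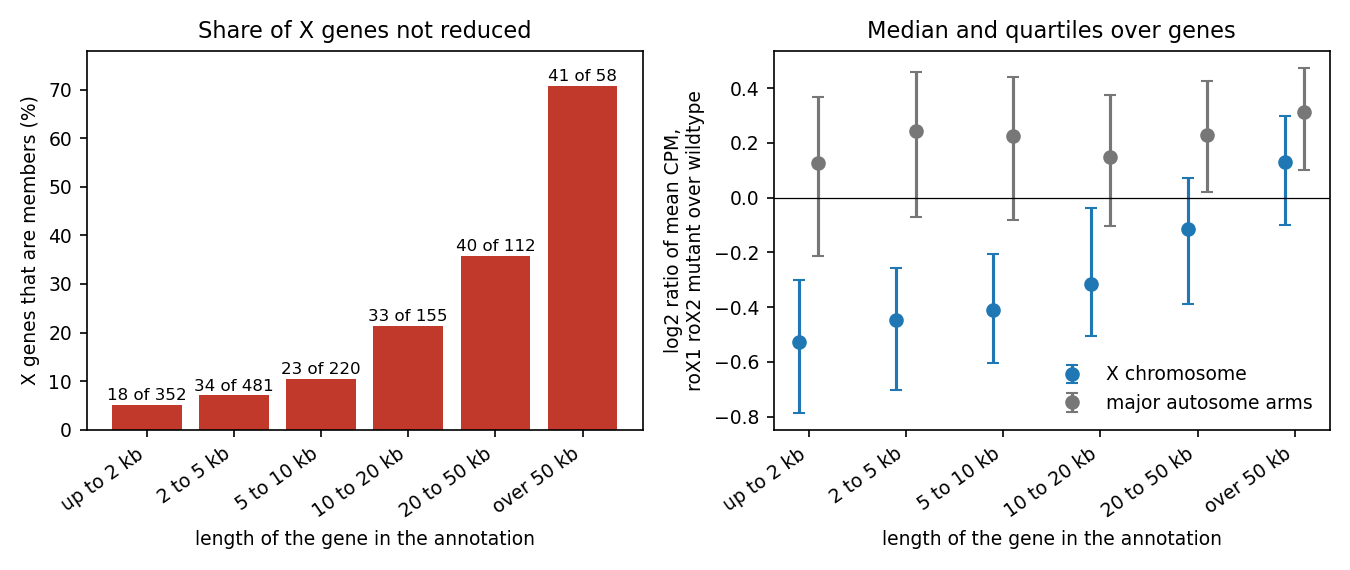
Left, the share of X genes above the minimum that are members, by length of the gene (bars, with counts). Right, median (points) and quartiles (bars) of the log2 ratio of mean CPM in the *roX1 roX2* mutant over wildtype for X genes and genes of the major autosome arms. X genes rise from -0.53 to 0.13 with length and autosomal genes stay between 0.13 and 0.31.

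Many members act in the nervous system. In 3 lists of X genes (ion channels and receptors, axon and adhesion genes, neural RNA-binding proteins and transcription factors), 47 of the 66 genes above the minimum were members (71.2%), against 142 of the other 1312 X genes (10.8%). Under TMM normalization 9 of 24, 13 of 21 and 10 of 21 genes of these lists were at or above 0, as were 94 of the 189 members. The lists are called neural for short. They also hold genes with other roles, such as *br*, an ecdysone target, and *zld*, an activator of the early embryonic genome. These 66 genes were also long. Among genes over 20 kb, 37 of 43 listed genes were members (86.0%), against 44 of 127 others (34.6%), and among genes up to 20 kb 10 of 23 (43.5%), against 98 of 1185 (8.27%). The lists were drawn up with earlier results of these data known, so their counts are not independent evidence of direction.

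Of the ion channels and receptors, 18 of 24 were members, and the list had a median log2 ratio of 0.09 in the *roX1 roX2* mutant, which was -0.08 under TMM normalization. The member furthest above wildtype was *eag*, a voltage-gated potassium channel gene of 54.5 kb, at 39.5, 73.5 and 53.9 CPM in the wildtype libraries and 82.0, 100.1 and 76.1 in the *roX1 roX2* libraries. The groups do not overlap, in libraries that the rule used, and the ratio of means was 1.55. *Cngl*, which encodes a cyclic nucleotide-gated channel subunit, was at 105, 154 and 101 CPM in wildtype and 169, 206 and 173 in the *roX1 roX2* mutant. Smaller ratios were found for the potassium channel genes *Sh* (log2 ratio 0.26) and *SK* (0.16), the calcium channel subunit genes *Ca-alpha1T* (0.25) and *cac* (0.03), and the acetylcholine receptor subunit genes *nAChRalpha3* (0.39) and *nAChRalpha7* (0.09). The dopamine receptor gene *Dop2R* was at 0.30, the NMDA-type glutamate receptor gene *Nmdar2* at 0.28, and the neuropeptide receptor genes *AstA-R1*, *CCKLR-17D1* and *Pdfr* at 0.25, 0.05 and 0.04. The other members were *CG42594* (0.48), the glutamate receptor auxiliary subunit gene *Neto* (0.15), the phospholipase C gene *norpA* (0.09) and the innexin genes *shakB* and *ogre* (both 0.02), which encode gap junction proteins. Not members were *Lcch3*, *Ork1*, *Inx7*, *Inx2*, *CCKLR-17D3* and *Hk*.

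Of the axon and adhesion genes, 13 of 21 were members and the list had a median log2 ratio of 0.20, or 0.03 under TMM normalization. Both of the longest members belong here, *kirre* (394.1 kb) and the teneurin gene *Ten-a* (291.5 kb). *Ten-a* was at 91.7, 170.2 and 120.1 CPM in wildtype and 149, 214 and 155 in the *roX1 roX2* mutant, so that the groups overlap. The immunoglobulin-domain adhesion gene *rst*, which acts with *kirre*, had the highest log2 ratio of this list (0.49) and *kirre* one of 0.24. Close to *rst* were *RhoGAP18B* (0.46), the calcium sensor gene *Frq2* (0.45), *X11Lbeta* (0.44), *dpr8* (0.42) and the guidance factor gene *NetB* (0.39). The microtubule-binding protein gene *futsch* was at 0.27, *dpr18* at 0.21, the amyloid precursor protein-like gene *Appl* at 0.20, *DIP-beta* at 0.19 and *RhoGAPp190* at 0.18. The genes *shi*, *NetA*, *sdk*, *X11L*, *dpr14*, *Frq1*, *kek5* and *Nrg* were not members, so *NetB* and *Frq2* were members and their relatives *NetA* and *Frq1* were not.

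Of the neural RNA-binding proteins and transcription factors, 16 of 21 were members, with a median log2 ratio of 0.16 over the list, which was -0.01 under TMM normalization. *fne* and *elav*, which encode related neuronal RNA-binding proteins, had log2 ratios of 0.51 and 0.36. *elav*, a standard marker of neurons, was at 137, 139 and 113 CPM in wildtype and 165, 190 and 143 in the *roX1 roX2* mutant. The transcription factor genes with the largest ratios were *br* (0.56), a target of the moulting hormone ecdysone, *Lim1* (0.52), *unc-4* (0.48), *ct* (0.40), *acj6* (0.39) and *Cph* (0.34). *ewg* (0.25), *bi* (0.24), *Bx* and *zld* (both 0.16), *Sp1* (0.12), *run* (0.11), *disco* (0.03) and *oc* (0.01) were closer to wildtype. Not members were *Myb*, *peb*, *sd*, *usp* and *Myc*.

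**Figure D3:**
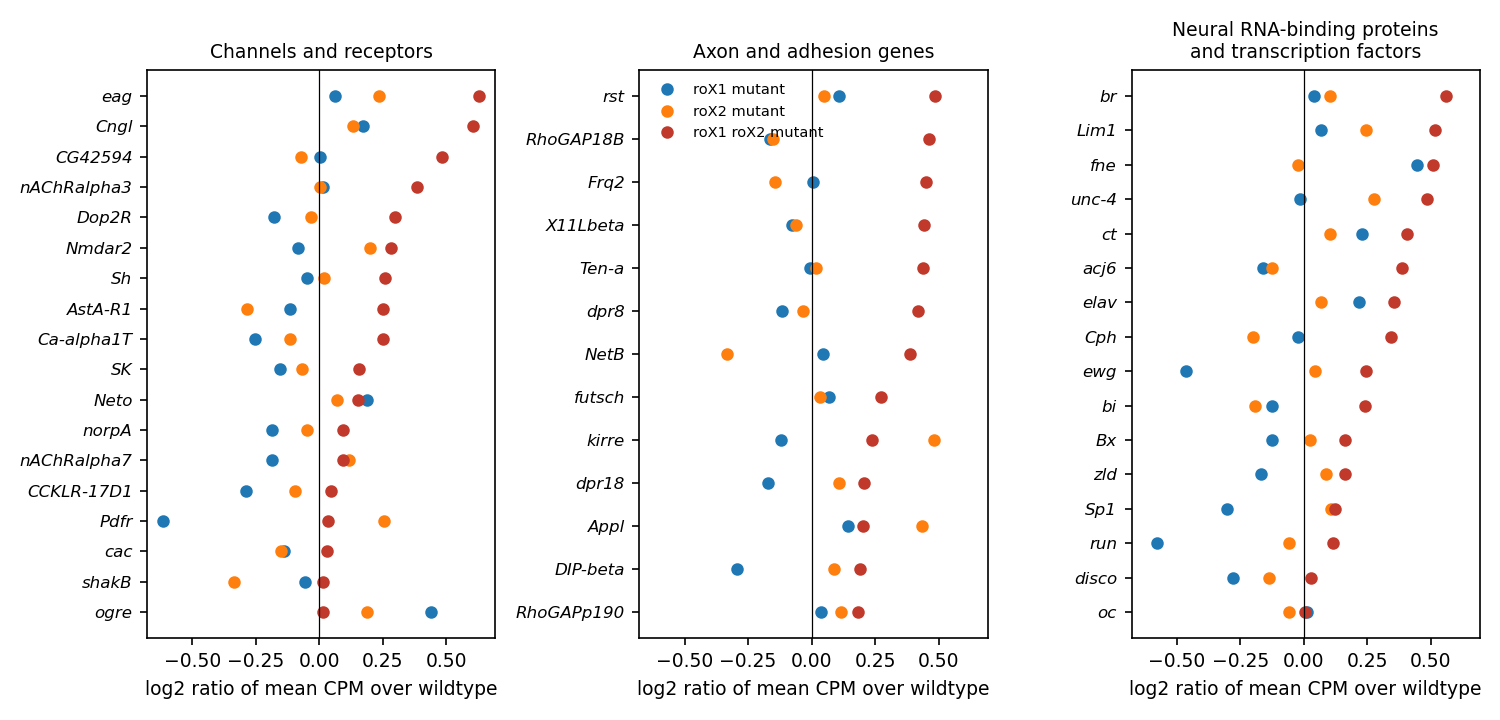
Log2 ratio of mean CPM over wildtype for the 47 neural members in the *roX1*, *roX2* and *roX1 roX2* mutants, by list. The *roX1 roX2* points lie at 0 or above by the choice of members, from 0.01 to 0.63, and the single-mutant points lie on both sides of 0.

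Markers of cell types shifted in the same libraries. Summed over the 47 neural members, levels were 3229 to 4365 CPM in wildtype and 3976 to 5072 in the *roX1 roX2* mutant, which overlap. The sum over 15 autosomal neuron markers was 3144 to 3929 CPM in wildtype, 3204 to 3967 in the *roX1* mutant, 2857 to 3776 in the *roX2* mutant and 4473 to 5366 in the *roX1 roX2* mutant, above all other libraries. Of these markers 13 of 15 had a log2 ratio above 0 and 12 of 15 one above the autosomal median. Their median was 0.52, with a range of -0.22 to 0.63, and none was at 0 counts in a whole group. The sum over 8 muscle markers was 34203 to 41383 CPM in wildtype and 20978 to 27122 in the *roX1 roX2* mutant, with 8 of 8 markers lower. Fat body markers summed to 5979 to 6230 CPM in wildtype and 3460 to 5333 in the *roX1 roX2* mutant, and glia markers to 1625 to 1986 and 1649 to 1918. Cuticle markers (1126 to 1630 and 1138 to 1411 CPM) and hemocyte markers (168 to 274 and 172 to 201) overlapped between these groups in sum. Sums weigh the most abundant genes. By gene, median log2 ratios in the double mutant were -0.61 for muscle, -0.59 for fat body, -0.63 for cuticle and -0.54 for gut markers. They were -0.13 for hemocyte and 0.10 for glia markers. In the *roX1* and *roX2* mutants fat body markers were at -0.89 and -0.73 and gut markers at -0.51 and -0.95. Muscle markers were at -0.21 and -0.06 there, and cuticle markers at 0.79 and 0.11. By gene, low fat body and gut markers were thus not particular to the double mutant. Of the gut markers, 1 of 7 had a log2 ratio above 0 in the double mutant. These gut values depend in part on wildtype replicate 1. *Jon65Aiii* was at 2380, 521 and 524 CPM in wildtype replicates 1, 3 and 4 and at 834, 664 and 1316 in the *roX1 roX2* mutant. *Jon65Aiv* was at 3950, 930 and 945 CPM and at 1459, 1058 and 2008. The other gut markers in the *roX1 roX2* mutant overlapped wildtype replicates 3 and 4 or lay below them. Gut markers set wildtype replicate 1 apart, at 6886 CPM against 1613 and 1780 in the other wildtype libraries and 1896 to 3768 in the *roX1 roX2* mutant. This is the library without which 57 members were lost, and it also had the highest share of lines that name no gene (23.8%). Whether these traits are linked was not tested. Within the *roX1* mutant, gut markers were at 2706 and 2900 CPM in replicates 1 and 2 and at 1481 and 1491 in replicates 3 and 4. Testis markers were low in all groups (5.70 to 8.49 CPM in sum in wildtype and 10.98 to 15.3 in the *roX1 roX2* mutant). The part of these shifts in the ratios of the neural members was not tested, and more cells of a type cannot be told apart from more RNA per cell in whole larvae.

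**Figure D4:**
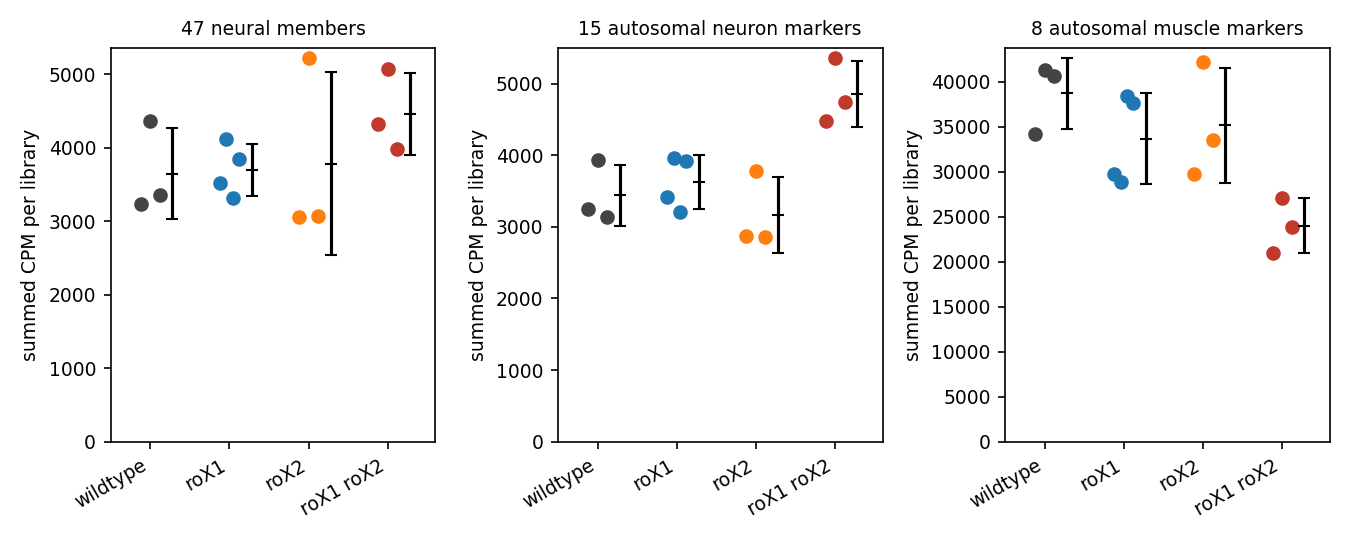
Summed CPM per library (points) with the mean and SD of each genotype (bars) for the 47 neural members, 15 autosomal neuron markers and 8 muscle markers. The neuron markers are highest and the muscle markers lowest in the *roX1 roX2* mutant.

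The other lists had fewer genes above the minimum than the neural lists. Members made up 18.8% of the chromatin regulators, 50% of the cytochrome P450 genes and 33.3% of the GMC oxidoreductase cluster. Of the ribosomal protein genes 7.69% were members, against 13.7% of all X genes above the minimum. Of 16 chromatin regulator genes above the minimum, 3 were members. These were *CoRest* (log2 ratio 0.27), which encodes a corepressor, and the adjacent genes *ph-p* (0.43) and *ph-d* (0.17), which encode the Polyhomeotic subunit of Polycomb repressive complex 1. *ph-p* and *ph-d* arose by duplication and are similar in sequence, so reads could be divided wrongly between them. *ph-p* was at 46.4, 55.0 and 48.9 CPM in wildtype, 62.4, 94.0 and 58.6 in the *roX2* mutant and 77.3, 70.8 and 55.0 in the *roX1 roX2* mutant. *mof*, the acetyltransferase gene of the MSL complex, was not a member. Among 13 ribosomal protein genes *RpL22* was the only member, with a log2 ratio of 0.09 that was below 0 under TMM normalization, and the median of the list was -0.31. Of 6 cytochrome P450 genes 3 were members, *Cyp4g1* (0.89), *Cyp4g15* (0.37) and *Cyp6v1* (0.11), and of 3 genes of the GMC oxidoreductase cluster *fiz* was (0.23).

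The 8 members with the largest ratios were under 10 kb and belonged to none of the neural lists. *CG8664* led, at 19.3, 10.4 and 8.85 CPM in wildtype and 27.4, 37.5 and 64.1 in the *roX1 roX2* mutant, a ratio of means of 3.34. *CG6891* was at 17.9, 9.04 and 9.89 CPM in wildtype and 27.2, 19.3 and 29.9 in the *roX1 roX2* mutant (2.07-fold). *Btnd*, named for biotinidase, was close to 8.59 CPM in each wildtype library (SD 0.407, n = 3) and at 16.1, 14.9 and 17.5 in the *roX1 roX2* mutant (1.88-fold). In each of these 3 genes the groups do not overlap. The ranking used these libraries, so this is a description. The *roX1 roX2* libraries were likewise all above wildtype in 27.8% of all genes in the fit.

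*Cyp4g1*, which makes the cuticular hydrocarbons that waterproof insects, was at 209, 211 and 222 CPM in wildtype and 409.8, 490.7 and 290.2 in the *roX1 roX2* mutant (1.85-fold). *CG1537* (1.66-fold), *CG3009* (1.62-fold) and *CG9686* (1.58-fold) also had all *roX1 roX2* libraries above all wildtype libraries, again in the libraries used for the ranking. *CG32751* did not. Its wildtype libraries were at 21.5, 3.10 and 4.49 CPM and its *roX1 roX2* libraries at 18.5, 10.1 and 23.5, and without wildtype replicate 1 its wildtype mean was under 5 CPM and it was no longer a member.

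The 8 members with the highest wildtype CPM were of several kinds. Per length, the highest of them was *RpL22* at 1316 TPM in wildtype, followed by the mucin-related gene *Mur18B* (480 TPM), *Mnr* (104), the splicing regulator gene *su(w[a])* (101), *Appl* (89.0), the otopetrin-like proton channel gene *OtopLa* (83.2), the transcription factor gene *NFAT* (75.4) and *Sh* (21.2). Their log2 ratios in the *roX1 roX2* mutant were 0.01 to 0.26. For *NFAT*, at 0.01, the libraries spread widely, from 330.3 to 499.8 CPM in wildtype and from 309.7 to 494 in the *roX1 roX2* mutant.

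How the members behaved with 1 *roX* RNA present was read first from the *roX1* against the *roX2* mutant, since the rule used none of these 7 libraries. The median log2 fold change (*roX1* over *roX2*) was -0.03 (quartiles -0.23 and 0.13) over the members, -0.02 (-0.19 and 0.20) over the reduced X genes and 0.05 (-0.14 and 0.27) over autosomal genes. In edgeR's quasi-likelihood test, with p-values adjusted over all 13975 genes by the method of Benjamini and Hochberg, 7 members passed 0.05. Of all genes 2.28% did, and of all X genes above the minimum 3.7%, the same share as of the members. In these 7, *CG8664* and *fne* were higher in the *roX1* mutant and *lcs*, *CG1552*, *SmydA-4*, *CG1545* and *CG6340* were higher in the *roX2* mutant. All *roX1* libraries lay below all *roX2* libraries in 31 members (16.4%) and above them in 5 (2.65%), where the shares were 14% and 6.48% in the reduced X genes and 9.8% and 5.66% in all genes.

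All 7 genes lie proximal to *v*, as did 32 of the 51 X genes above the minimum that passed this test (62.7%), in a stretch that holds 51.2% of such X genes. Neighbours among them were *SmydA-4*, *CG1552* and *CG1545*, which stand within a run of 5 consecutive members (*vex*, *SmydA-4*, *CG1552*, *CG1545* and *CG1537*) at X:10967722-11063170 of genome release 6. *v* itself is at X:10923972-10925631 and *roX2* further on, at X:11579065-11580432. This run was the longest of all runs of members.

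*CG1552* was at 18.2, 20.6, 21.6 and 23.1 CPM in the *roX1* mutant and 51.5, 38.0 and 38.4 in the *roX2* mutant. It was thus lower in every *roX1* library, with a log2 fold change of -0.96 (SE 0.13, edgeR adjusted p = 0.0042). In wildtype it was at 28.8, 34.2 and 29.4 CPM, between the single mutants. The libraries of the double mutant were at 51.0, 43.4 and 42.9. *SmydA-4*, of a family of proteins with SET and MYND domains, was at 18.4 to 21.6 CPM in the *roX1* mutant and 36.3, 47.3 and 36.5 in the *roX2* mutant (log2 fold change -0.91, SE 0.18, edgeR adjusted p = 0.031). *CG1545* was at 9.48 to 11.4 CPM and at 18.2, 14.8 and 19.3 in these groups (-0.71, SE 0.13, edgeR adjusted p = 0.0221). The same 5 genes in order had log2 fold changes of -0.26, -0.91, -0.96, -0.71 and -0.53, and the outer genes *vex* and *CG1537* did not pass (edgeR adjusted p = 0.30 and 0.099). In all 5 genes the *roX1* libraries lay below the *roX2* libraries without overlap.

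The other 4 called members lay apart. *lcs*, a gene of 0.59 kb, was at 142, 179, 198 and 152 CPM in the *roX1* mutant and 548, 306 and 274 in the *roX2* mutant (log2 fold change -1.09, SE 0.23, edgeR adjusted p = 0.0381). Its wildtype libraries, at 177, 153 and 175, were within the *roX1* range. *CG6340* was at 85.2 to 92.7 CPM in the *roX1* mutant and 134, 160.4 and 114 in the *roX2* mutant (-0.56, SE 0.13, edgeR adjusted p = 0.0453). *fne* was at 264, 313, 244 and 294 CPM in the *roX1* mutant and 205, 224 and 175 in the *roX2* mutant (0.54, SE 0.11, edgeR adjusted p = 0.0353). *fne* was at 183 to 231 CPM in wildtype and 260.2 to 323 in the *roX1 roX2* mutant, so that libraries without *roX1* RNA were above libraries with it.

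*CG8664* had the largest fold change of the 7 genes that passed. It was at 111, 117, 80.8 and 72.8 CPM in the *roX1* mutant and 36.4, 22.9 and 17.6 in the *roX2* mutant (log2 fold change 1.98, SE 0.41, edgeR adjusted p = 0.0348). Its exons overlap exons of *f* and *CG5445* on the other strand. The library kit did not mark strand and it is not settled which strand setting the counting used, so reads of the 3 genes cannot be fully told apart. Among all members, exons of 33 overlap a gene on the other strand and exons of 11 a gene on the same strand.

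These calls rest on few libraries. The number of called members was 1 without *roX1* replicate 1 (*CG1552*), 2 without *roX1* replicate 2 or without *roX2* replicate 2, 3 without *roX1* replicate 3, *roX1* replicate 4 or *roX2* replicate 4, and 6 without *roX2* replicate 3. *CG1552* passed in each of these 7 fits. Over all genes these fits called 135 to 258, against 318 with all libraries. DESeq2 called 24 members, among them all 7, with 6 higher and 18 lower in the *roX1* mutant. Of all 13975 genes it called 1173, with 686 higher and 487 lower.

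**Figure D5:**
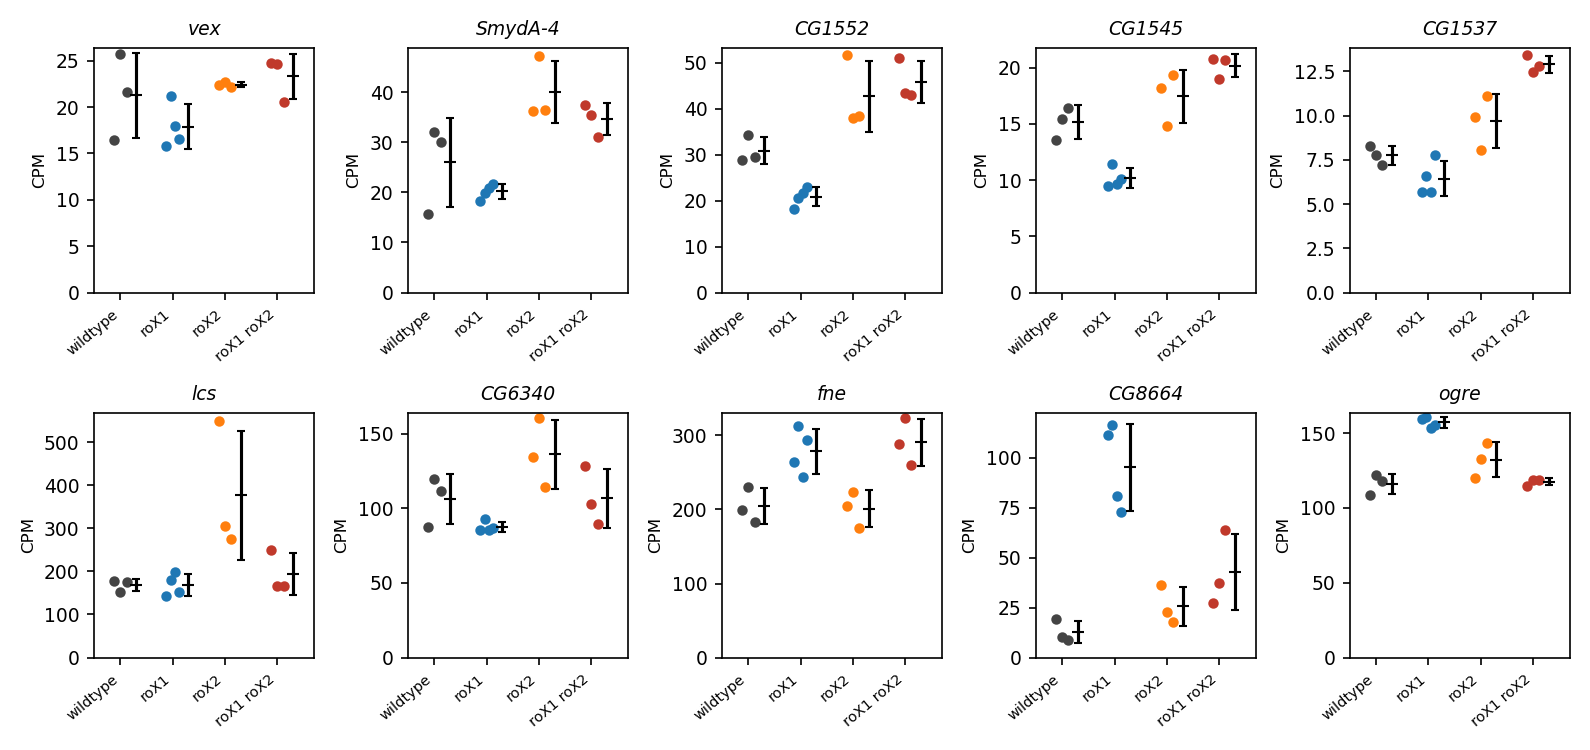
CPM in each library (points) with the mean and SD of each genotype (bars) for the 5 consecutive members proximal to *v* (top), and for *lcs*, *CG6340*, *fne*, *CG8664* and *ogre* (bottom). In all 5 genes of the run the *roX1* libraries lie below the *roX2* libraries.

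Against wildtype, the single mutants share the wildtype libraries with the rule, so the values are given side by side. In the *roX1* mutant, where only *roX2* RNA is present, the members had a median log2 ratio of -0.06 (quartiles -0.17 and 0.08), the reduced X genes -0.10 and the autosomal genes -0.04. In the *roX2* mutant, where *roX1* RNA is present, these medians were 0.07 (quartiles -0.06 and 0.23), -0.01 and -0.02. The 47 neural members were at -0.08 in the *roX1* mutant and 0.02 in the *roX2* mutant, and the other 142 members at -0.06 and 0.09. In the *roX2* mutant the neural members summed to 5225 CPM in replicate 3 and to 3051 and 3074 CPM in the others, so that this group spread widely.

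Against wildtype, 2 members passed in the *roX1* mutant, where 0.751% of all genes were higher and 0.572% lower (edgeR, as above). *CG8664* was 7.42-fold higher by the ratio of mean CPM (edgeR log2 fold change 2.95, SE 0.43, adjusted p = 0.0079). *ogre*, the innexin gene, was at 159, 161, 153 and 155 CPM in the *roX1* mutant and 109, 122 and 118 in wildtype (0.51, SE 0.10, edgeR adjusted p = 0.0346). In the *roX1 roX2* mutant, which lacks *roX1* RNA as well, *ogre* was at 115, 119 and 118 CPM, within the wildtype range. *ogre* did not pass when any 1 library of the *roX1* mutant or wildtype was left out. By edgeR 0 members were lower in the *roX1* mutant. At an unadjusted p under 0.05 there were 26 members (19 higher and 7 lower). This count was not made over all genes and shares wildtype libraries with the rule. Neither its size nor its direction can therefore be read as particular to the members. DESeq2 called 12 members (9 higher and 3 lower) and 966 of all 13975 genes (594 higher and 372 lower). *SmydA-4* was lower by edgeR when wildtype replicate 1 was left out. *run* was lower by edgeR when genes needed a mean of at least 10 counts.

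No member passed in the *roX2* mutant against wildtype by edgeR, where 0.351% of all genes did. At an unadjusted p under 0.05 there were 23 members (21 higher and 2 lower). This count was not made over all genes, so its size cannot be read as particular to the members. DESeq2 called 5 members, all higher (*CG1552*, *CG1998*, *Cfp1*, *lcs* and *Btnd*), and 244 of all 13975 genes (118 higher and 126 lower). The rule used the same wildtype libraries, so the direction of these counts is not independent of it. *Btnd* was among the members with the largest ratios in all mutants, at 2.60-fold in the *roX1* mutant and 2.83-fold in the *roX2* mutant, and passed edgeR's test in neither (adjusted p = 0.0804 and 0.19).

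Of the other genes with the largest ratios in the double mutant, *CG6891* was split within the *roX1* mutant, at 57.6 and 54.0 CPM in replicates 1 and 2 and 13.4 and 15.2 in replicates 3 and 4. *CG3009* was split in the same way, at 41.7 and 42.4 against 23.6 and 25.7 CPM. *Cyp4g1* was at 320.2, 282, 355 and 371 CPM in the *roX1* mutant, above all wildtype libraries (1.55-fold, edgeR adjusted p = 0.242), and at 444, 160.0 and 260.1 in the *roX2* mutant. *CG9686* was at 184, 98.2 and 85.7 CPM in the *roX2* mutant and 54.6 to 80.0 in the *roX1* mutant (log2 fold change -0.80, SE 0.24, edgeR adjusted p = 0.104).

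Positions along the X were not part of the rule. Distal to *roX1* (before X:3857230), 28 of 236 X genes above the minimum were members (11.9%), between *roX1* and *v* 72 of 437 (16.5%), and proximal to *v* 89 of 705 (12.6%). These stretches hold 14.8%, 38.1% and 47.1% of the members and 17.1%, 31.7% and 51.2% of all X genes above the minimum. Members were thus spread over stretches that in the *roX1 roX2* mutant came from the *roX1* mutant X (distal) or the *roX2* mutant X (proximal), or were of unresolved origin. Medians of the log2 fold change of *roX1* over *roX2* were -0.10, 0.01 and -0.05 in the members of the 3 stretches and -0.07, -0.01 and 0.00 in the reduced X genes. Calls among members were 0, 0 and 7 in these stretches, and over all X genes above the minimum 6, 13 and 32.

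Of the 189 members, 64 (33.9%) stood next to another member among the X genes above the minimum, in 26 runs, of which 9 held 3 or more genes. The share for X genes taken at random was not worked out, so these counts are a description only. Besides the run proximal to *v*, there was a run of 4, *fiz*, *pdgy*, *eag* and the ubiquitin ligase gene *hiw* (X:14906334-15063429). The others were runs of 3. Distal to *roX1* these were *Nmdar2*, *Mur2B* and *br* (X:1483625-1668788), and *csw*, a phosphatase gene of receptor tyrosine kinase signalling, with *ph-d* and *ph-p* (X:2094234-2138371). Between *roX1* and *v* they were *CG4766*, *mab-21* and the cell cycle inhibitor gene *rux* (X:5997508-6037800), and *rumpel*, *CG11368* and *ct* (X:7418594-7678859). Proximal to *v* they were *CG4004*, the purine synthesis gene *Paics* and *pira* (X:12744212-12763611), *Frq2*, *CG33639* and *kairos* (X:18177612-18356191), and *Cyp6v1*, *run* and *shakB* (X:20657122-20927050).

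Neighbours in a run had like ratios in some runs and unlike ratios in others, and how often they did was not tested. *CG4766*, *mab-21* and *rux* had log2 ratios of -0.37, -0.21 and -0.29 in the *roX1* mutant. In the run of 4, log2 ratios in the *roX1* mutant were -0.20 for *fiz*, 0.63 for *pdgy*, 0.06 for *eag* and -0.28 for *hiw*. *Paics* was at 56.6, 60.8, 105 and 108 CPM in the *roX1* mutant and 56.6 to 60.2 in wildtype, while its neighbours *CG4004* and *pira* had log2 ratios of -0.04 and -0.08. Some neighbours also share transcribed DNA, since exons of *Mur2B* and *br* overlap on opposite strands, and 57 members hold at least 1 other gene within their span.

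Of the 189 members, 55 are in a list above and 134 in none, and 68 have only a CG number as a symbol. Members in no list are given here by their counts and in the ranges above, apart from those named. Of the 833 X genes of up to 5 kb above the minimum, 52 were members.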

How the data were processed

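RNA of 13 libraries was analysed from the authors' deposited files. Per the methods, the authors aligned paired reads with STAR (2.5.1b) to genome release 6 and made counts per gene with HTSeq (0.6.1). The deposited counts are raw. Counting was described as run with default settings, which in this tool use strand, while the kit did not mark strand. The setting used is not settled, and counts of overlapping genes are uncertain. Lines that name no gene took 10.3% to 23.8% of each file and were left out. Genes were annotated with Ensembl BDGP6.54 (release 115), and 247 identifiers without a match could not be members. CPM is the count over summed nuclear gene counts.

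Members and lists were chosen with earlier results of these data known. Genes were named by rule: the 8 largest ratios, the 8 highest wildtype CPM, members called between single mutants, the 3 genes on each side of the threshold, list members, runs of 3 or more, and *ph-p* with *ph-d*. *CG1998* and *Cfp1*, genes with remarks on reads or overlaps and list genes that are not members were named after their values were seen.

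edgeR (4.0.16 in R 4.3.3, quasi-likelihood, TMM) fitted all 13 libraries together, over 13975 genes with at least 20 counts in sum. DESeq2 (1.42.0), other scalings, filters, a replicate block and libraries left out were alternatives. Deviations of same-numbered *roX1* and wildtype libraries correlated at 0.705, 0.598 and 0.715, past the limit of 0.1 fixed for taking numbers as pairs. Libraries of different numbers correlated at -0.716 to 0.702, so the values do not single out the numbers. *roX1* replicates 1 and 2 both went with wildtype replicate 1 (0.705 and 0.702). *roX1* replicates 3 and 4 went with wildtype replicates 3 and 4 (0.598 to 0.715). The tests did not model such a grouping. Each p-value covers the spread between pools of larvae, taken as independent.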

Additional observations from a re-analysis of the deposited data

Results flagged for a closer look

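Among the 90 members named by rule, 1 had a library of the *roX1* mutant far from the other 3. *zld*, which encodes an activator of the early embryonic genome, was at 120.7 CPM in *roX1* replicate 2 and at 96.2 to 100.3 CPM in the others. The gap was 0.832 of the whole range, just past the 95% limit of Dixon's test for 4 samples. Chance alone marks about 1 in 20 groups.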

How the results depend on the processing

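The number of members (189) moved by more than 1.5 times under TMM-normalized CPM only, to 94. It was 176 with mitochondrial genes kept, 146 with autosome arm counts, 222 with a ratio of medians, 194 with a mean of log2(CPM + 1), 168 with a minimum of 10 CPM, 196 with the minimum set on the mean of both groups, and 161 to 242 with 1 library left out. Between the single mutants, 7 members were called, and 24 with DESeq2, 1 with only these genotypes in the fit, and 1 to 6 with 1 library left out. With the replicate block 5 were called, of which *CG9686* was not among the 7. Same-numbered *roX1* and *roX2* libraries correlated at -0.523, 0.361 and -0.716, so they share only a number. In the *roX1* mutant against wildtype, 2 members were called, and 12 with DESeq2, 3 with a mean of at least 10 counts (*run*, lower, in addition), 1 with only these genotypes, and 1 to 2 with 1 library left out. The replicate block called the same 2 genes there. In the *roX2* mutant against wildtype, 0 were called, and 5 with DESeq2, 1 with a mean of at least 10 counts (*Cfp1*), 0 with the replicate block and 0 to 1 with 1 library left out. In none of the 14 alternative fits did a called gene change direction. *CG8664* against wildtype passed in all 14, *CG1552* in 13, *CG1545* and *lcs* in 8, *CG8664* and *SmydA-4* between the single mutants in 7, *fne* and *ogre* in 6 and *CG6340* in 5. At a minimum of 10 CPM the shares of members distal to *roX1*, between *roX1* and *v* and proximal to *v* were 15.5%, 38.7% and 45.8%. These 168 genes are all among the 189, so the shares could hardly differ and are a description. Over all genes, 318 were called between the single mutants by edgeR and 1173 by DESeq2. There edgeR called 254 with the replicate block, 39 with only these genotypes and 135 to 258 with 1 library left out. Against wildtype, edgeR called 185 in the *roX1* mutant and 49 in the *roX2* mutant, and DESeq2 966 and 244. With a mean of at least 10 counts edgeR called 216 and 61, and with the replicate block 209 and 32. With only these genotypes it called 87 and 9, and with 1 library left out 61 to 251 and 23 to 59. The cause of these differences was not tested. With 3 or 4 pools of larvae per genotype, the spread between pools limits which changes pass.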
